A study of Mus musculus with 20 samples.

Results

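The genes examined were 6 core members of canonical Wnt signalling, the DNA-binding effectors Tcf7l1, Tcf7l2, Tcf7 and Lef1, their coactivator Ctnnb1 (β-catenin) and the feedback gene Axin2. Each was described by the accessible chromatin regions, or peaks, that overlapped one of these genes or lay within 50000 bp of it in the list of merged ATAC-seq peaks. This took 169 of the 102373 listed peaks (0.165%). The genes were selected on that list, Tcf7l1 for a long run of neighbouring peaks, so the peak numbers below are a description of how they were chosen and carry no test. ATAC-seq marks open DNA by the insertion of sequencing adapters with a transposase.

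In all, 20 libraries were made, 2 for each of 10 groups, from the mouse embryonic stem (ES) cell line ZHBTc4, in which a Tet-Off promoter drives OCT4 so that doxycycline (dox) turns it off. All cells carried the cell cycle reporter YPet-MD and a SNAP-tagged OCT4 that was expressed from a PGK promoter after lentiviral transduction, fused either to a mitotic degron (SNAP-MD-OCT4) or to its mutated form (SNAP-MD*-OCT4), with cells sorted to a narrow range of SNAP signal. MD-OCT4 and MD*-OCT4 cells given 1 ug/ml dox for 40 h, with 50 uM Hoechst33342 as the DNA stain, were each separated by cell cycle phase, with early and late G1, S, and late S/G2 as the 4 gates (16 libraries), and 4 unsorted libraries had no dox. The medium of every group contained serum, LIF, PD184352 at 0.8 μM and CHIR99021 at 3 μM. CHIR99021 is an inhibitor of GSK3 that is used to stabilise β-catenin and so to activate the Wnt pathway, and controls and test groups shared it. The list merges the peaks of the 16 dox-treated libraries and gives only a chromosome, a start and an end for each. A peak open in a single library and a peak open in all of them therefore count alike, depth is unknown, no value per library can be shown, and MD-OCT4 and MD*-OCT4 cannot be told apart in it. The cell type could not be checked against expressed markers.

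In canonical Wnt signalling, a ligand engages Frizzled and LRP receptors, the destruction complex of APC, Axin, GSK3 and casein kinase is inhibited, and β-catenin accumulates and enters the nucleus. There it binds the HMG-box proteins of the TCF/LEF family, which sit on DNA with or without it and otherwise recruit corepressors of the TLE family. In mouse ES cells Tcf7l1 (also called TCF3) is known as the family member that limits the pluripotency network in the absence of β-catenin, and GSK3 inhibition relieves this repression and helps cells to self-renew.

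Before the counts, the DNA at the 5′ ends of the 6 genes is shown, because these are the places where a peak can be tied to a gene without regard to distance. Each line gives the 120 bases just upstream of the most upstream nearby transcript start in RefSeq or GENCODE, read 5′ to 3′ on the gene's strand from the GRCm38 assembly. Capitals mark CG pairs, the substrate of DNA methylation. The windows are chr6:72789255-72789374 (minus strand) for Tcf7l1, chr19:55741677-55741796 (plus) for Tcf7l2, chr11:52283384-52283503 (minus) for Tcf7, chr3:131110177-131110296 (plus) for Lef1, chr9:120933280-120933399 (plus) for Ctnnb1 and chr11:108920229-108920348 (plus) for Axin2.
Tcf7l1: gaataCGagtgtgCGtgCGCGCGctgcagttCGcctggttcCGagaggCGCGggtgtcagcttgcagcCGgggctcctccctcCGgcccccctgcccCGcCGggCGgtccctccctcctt
Tcf7l2: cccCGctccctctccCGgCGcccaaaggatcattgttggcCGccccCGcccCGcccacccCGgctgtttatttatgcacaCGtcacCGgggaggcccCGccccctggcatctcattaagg
Tcf7: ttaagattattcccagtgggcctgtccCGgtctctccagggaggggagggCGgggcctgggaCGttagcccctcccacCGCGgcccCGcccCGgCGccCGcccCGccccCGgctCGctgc
Lef1: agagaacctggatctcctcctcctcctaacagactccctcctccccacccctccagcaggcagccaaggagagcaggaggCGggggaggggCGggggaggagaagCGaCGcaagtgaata
Ctnnb1: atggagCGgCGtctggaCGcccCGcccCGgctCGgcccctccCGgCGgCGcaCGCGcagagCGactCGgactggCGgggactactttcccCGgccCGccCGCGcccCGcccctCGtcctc
Axin2: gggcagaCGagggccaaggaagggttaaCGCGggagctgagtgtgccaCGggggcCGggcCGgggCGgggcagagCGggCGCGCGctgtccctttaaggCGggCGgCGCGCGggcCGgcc

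The Lef1 window stood apart, with 4 CG pairs where the other windows held 10 to 20, and with 76 of its 120 bases inside a listed peak where the other 5 windows were covered whole. The Lef1 window also lay in an exon of the antisense transcript Gm43352, whereas none of the other 5 overlapped an annotated exon. RefSeq promoter windows, taken as the 250 bases before the first start in the promoter table, need not coincide with these. That of Tcf7 (chr11:52283015-52283264) lies downstream of its most upstream RefSeq start, and that of Tcf7l1 (chr6:72789046-72789295) mostly within the first GENCODE exon. In these windows the GC content was 73.6% for Tcf7l1, 72.8% for Tcf7l2, 76.0% for Tcf7, 74.8% for Ctnnb1, 69.2% for Axin2 and 66.4% for Lef1, against a median of 52.4% over 32851 RefSeq windows. They held 29, 30, 37, 35, 24 and 11 CG pairs in the same order, where the median window held 6.

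Peaks lay at the starts of all 6 genes. Of the 6, 5 had a peak within 1000 bp of the annotated 5′ end, as did 66.1% of all protein-coding genes. The exception was Ctnnb1, whose annotated 5′ end belongs to a transcript that begins 4184 bp upstream of the principal one, and the principal start lay in a 793-bp peak. The peak at the Tcf7l1 start was 1376 bp wide (chr6:72788461-72789836) and was centred in exon 1. Tcf7l2 had a peak of 871 bp across its 5′ end and a second of 1545 bp that was centred 1482 bp into the gene, in intron 3. The Tcf7 start was covered by a 1065-bp peak and the Axin2 start by a 1514-bp peak. The Lef1 start had a narrow peak of 318 bp (chr3:131110221-131110538), and a 1799-bp peak in intron 1, the widest of the 169, followed it (chr3:131110888-131112686).

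**Figure D1:**
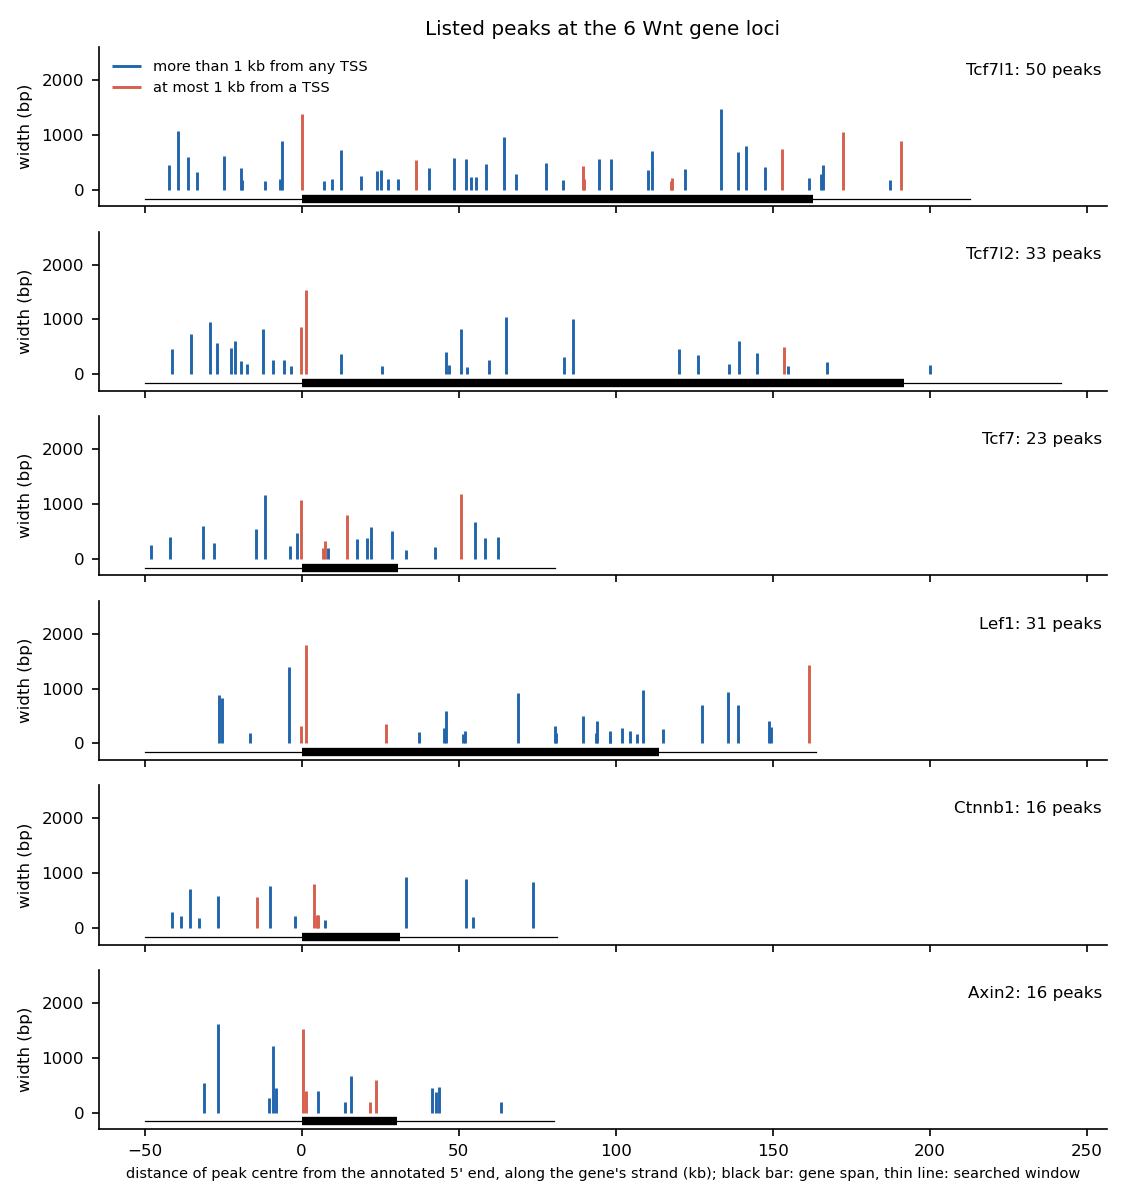
Each vertical line is a listed peak, placed by the distance of its centre from the annotated 5′ end along the gene's strand (kb) with its height giving its width (bp), for the 6 loci. Red peaks lay at most 1 kb from any annotated TSS, blue peaks further away, and the black bar is the gene; Tcf7l1 has peaks along nearly all of its 163 kb.

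To ask where along each gene the peaks lay, they were split by the position of their centre. At Tcf7l1, a gene of 163 kb on chromosome 6 (72626378 to 72789254, minus strand), 50 peaks were listed, of which 35 were centred in the gene, 10 upstream and 5 downstream. Intron 3 of its 12-exon principal transcript, 139 kb long, held 30 of them, or 2.16 per 10 kb. Intron 4 (14.9 kb) held 3 more, and the remaining 9 introns, each 2.16 kb or shorter, held none.

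The paralogues were arranged differently. Tcf7l2, the longest gene of the family at 192 kb (chromosome 19, 55741820 to 55933654), had 33 peaks, of which 19 were in introns and 13 upstream. Its introns 3 and 4, of 74.6 and 90.6 kb, held 9 peaks each, or 1.21 and 0.994 per 10 kb. After intron 5 no peak was centred in the gene, and a single one lay downstream, 199948 bp from the 5′ end. Tcf7, at 30.6 kb (chromosome 11, 52252371 to 52283014), had 23 peaks, 8 in the gene, 9 upstream and 6 downstream, and its intron 3 of 20.5 kb held 6, or 2.93 per 10 kb. Lef1, at 114 kb (chromosome 3, 131110471 to 131224356), had 31 peaks, with 7 in the 69.1 kb of intron 3 (1.01 per 10 kb) and 6 in the 18.1 kb of intron 11 (3.31 per 10 kb). In Lef1 the denser part was thus the 3′ end of the gene, and in Tcf7l2 the upstream flank, with 13 peaks in 50 kb.

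The coactivator and the feedback gene had fewer peaks over shorter spans. Ctnnb1, at 31.3 kb (chromosome 9, 120929216 to 120960507), had 16 peaks, of which 8 were upstream and 4 in the gene. Of these 4, 3 were in intron 1 and none lay in the 14 exons that follow it or the introns between them. The 4 downstream of Ctnnb1 all lay inside the neighbouring gene Ulk4. Axin2, at 30.4 kb (chromosome 11, 108920349 to 108950783), a scaffold of the destruction complex that is itself a target of the pathway, also had 16 peaks, with 7 in the gene.

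Because longer genes collect more peaks, the numbers were divided by the length of the gene and its flanks. Tcf7l1 had 19.02 peaks per 100 kb, Tcf7 17.6, Lef1 14.5, Axin2 12.3, Ctnnb1 12.2 and Tcf7l2 11.3. Over all 21938 protein-coding genes the median was 6.97 and the quartiles 2.87 and 11.5. Of all genes, 2.29% were at or above Tcf7l1, 4.24% at or above Tcf7, 12.0% at or above Lef1, 21.2% at or above Axin2, 21.5% at or above Ctnnb1 and 25.9% at or above Tcf7l2. All 6 were above the median gene, and they had been selected with such counts known.

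**Figure D2:**
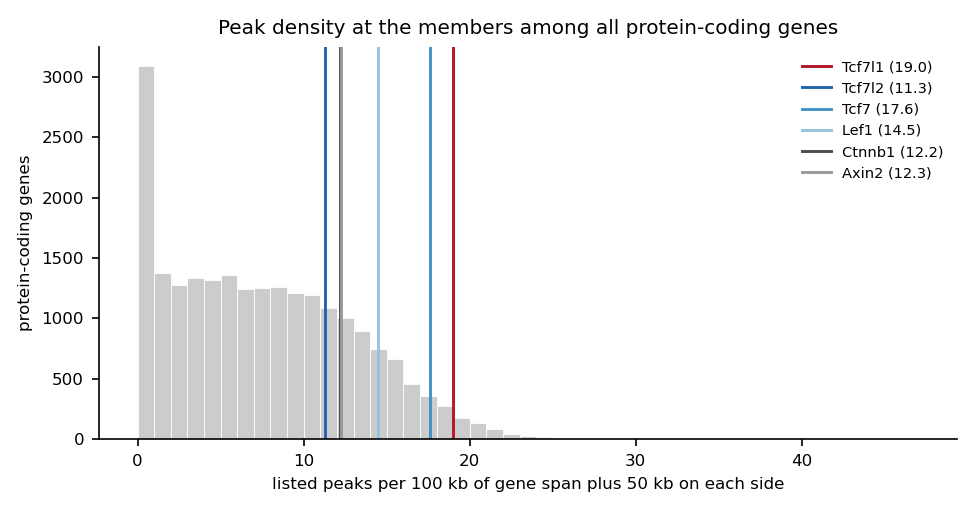
Listed peaks per 100 kb of gene span plus 50 kb on each side (x axis) for all protein-coding genes (grey bars, number of genes on the y axis), with the 6 members as vertical lines. Tcf7l1 (19.02) and Tcf7 (17.6) lie in the right tail, and Tcf7l2 (11.3) is close to the upper quartile of 11.5.

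The paralogue nearest to Tcf7l1 in density was Tcf7, and the order of the pair depended on how peaks were counted. The ratio of their densities was 1.08, and it fell below 1 when only the gene spans were counted (21.5 against 29.4 peaks per 100 kb, ratio 0.732), with flanks of 10000 bp (0.923) or without peaks under 300 bp (0.994). In a fixed window of 50 kb on each side of the 5′ end, which removes gene length altogether, Tcf7l1 had 22 peaks, Tcf7 19, Tcf7l2 18, Axin2 15, Ctnnb1 13 and Lef1 10, against a median of 7 and an upper quartile of 12 over all protein-coding genes. Only 0.966% of genes had as many as Tcf7l1 there, and 36.8% had as many as Lef1. Peaks covered 9.28% of the Tcf7l1 window, 8.72% at Tcf7, 7.69% at Lef1, 7.30% at Axin2, 5.96% at Ctnnb1 and 5.44% at Tcf7l2.

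The run of peaks for which Tcf7l1 was chosen was long, but less dense than the largest runs at the other members. With neighbours at most 10 kb apart, 40 peaks formed a single run of 173 kb (chr6:72690537-72863389), which started within intron 3, passed the gene's start and went on upstream. Of these 40, 24 were centred in Tcf7l1, 10 lay upstream in the window and 6 lay beyond it. At Tcf7 the largest run that touched the gene had 19 peaks over 77.6 kb, at Tcf7l2 14 over 43.7 kb, at Lef1 12 over 34.8 kb, at Axin2 10 over 34.5 kb and at Ctnnb1 7 over 21.8 kb. The median run of at least 2 peaks in the whole list had 3. Per 10 kb, however, the Tcf7l1 run held 2.31 peaks, the lowest of the 6, against 3.45 at Lef1, 3.21 at Ctnnb1, 3.20 at Tcf7l2, 2.90 at Axin2 and 2.45 at Tcf7.

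The extent of the Tcf7l1 run turned on the gap allowed and on its narrow peaks. Of its 39 gaps the median was 3227 bp, 13 exceeded 5000 bp and the largest was 9428 bp. The median gap in the whole list was 7796 bp, but gaps within a run are limited by how runs were defined. The run ended at gaps of 11460 bp inside the gene and 10085 bp upstream, only just over the limit. With gaps of at most 5 kb the largest run touching Tcf7l1 had 7 peaks, fewer than the 12 at Tcf7l2 and the 9 at Lef1. With gaps of at most 20 kb it had 57. Of the 40 peaks 14 were narrower than 300 bp. Without such peaks the largest run touching Tcf7l1 had 6 peaks, behind 10 at Tcf7 and 7 at Axin2. Runs that did not touch the gene were not counted, and upstream of Tcf7l1 a longer chain of peaks of at least 300 bp remained. Joining peaks at most 100 bp apart left the Tcf7l1 run at 36.

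**Figure D3:**
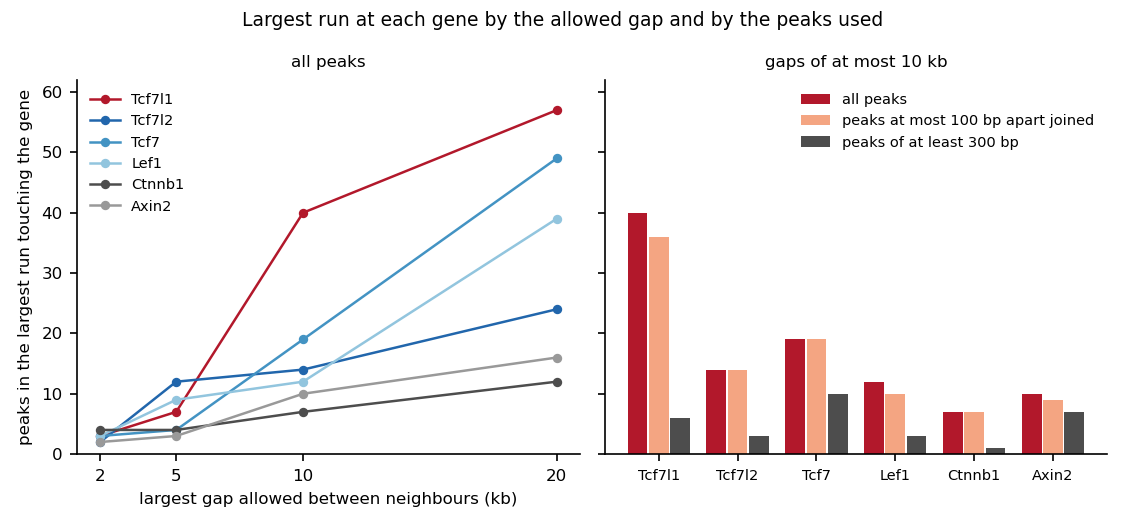
Peaks in the largest run touching each gene, by the largest gap allowed between neighbours (left, kb) and, at gaps of at most 10 kb, for all peaks, after joining peaks at most 100 bp apart, and for peaks of at least 300 bp (right). Tcf7l1 leads at 10 and 20 kb but has 7 peaks at 5 kb, and 6 once narrow peaks are left out.

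The border of the 50000-bp window also cut through chains of peaks. Upstream of Tcf7l1 the outermost peak inside was 460 bp wide and lay 7518 bp from the border, and the next, of 651 bp, lay 1810 bp beyond it in the same run. At the downstream border of Ctnnb1, a peak of 1475 bp was left out by 25 bp. The outermost member of Lef1 was 1427 bp wide, lay 1792 bp inside the border and overlapped the start of the neighbouring gene Hadh.

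Most member peaks were far from any TSS. Of the 169, 140 (82.8%) were distal, that is more than 1000 bp from every annotated TSS, against 74.9% of the list, and 29 were within 1000 bp of a TSS, as were 25.1% of all listed peaks. Of these 29, 15 lay at a start of the member itself and 14 only at the start of another gene. At Tcf7l1 9 peaks were near a TSS. Of these, 3 were at its own starts, including a pair, 155 and 207 bp wide, on either side of the start of a short transcript and centred 117757 and 117956 bp into the gene, and 6 were at other genes, among them Tgoln1 (1053 bp) and Elmod3 (897 bp). At Tcf7l2 all 3 such peaks were at its own starts, the third of which, 495 bp wide, lay in intron 4 at the start of shorter Tcf7l2 transcripts. None of the 33 peaks at Tcf7l2 was at the start of another gene, whereas Tcf7 had 4 such peaks, among them a 1179-bp peak at Skp1a.

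The median width was 404.5 bp at Tcf7l1 (95% interval 291 to 558), 381 bp at Tcf7l2, 391 bp at Tcf7, 318 bp at Lef1 (225 to 692), 431 bp at Ctnnb1 and 444 bp at Axin2, and all 6 intervals overlapped. The median of all listed peaks was 415 bp, and that of the 169 was 391 bp. Within a locus the widths ran from 155 to 1480 bp at Tcf7l1 and from 135 to 1799 bp at Lef1. Peaks under 300 bp made up 64 of the 169 (37.9%), against 35.8% of the list. They numbered 18 of 50 at Tcf7l1, 13 of 33 at Tcf7l2, 7 of 23 at Tcf7, 14 of 31 at Lef1, 8 of 16 at Ctnnb1 and 4 of 16 at Axin2. The 29 peaks near a TSS had a median of 563 bp, below the 815 bp of all such peaks in the list, and the distal members had a median of 386.5 bp against 352 bp.

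**Figure D4:**
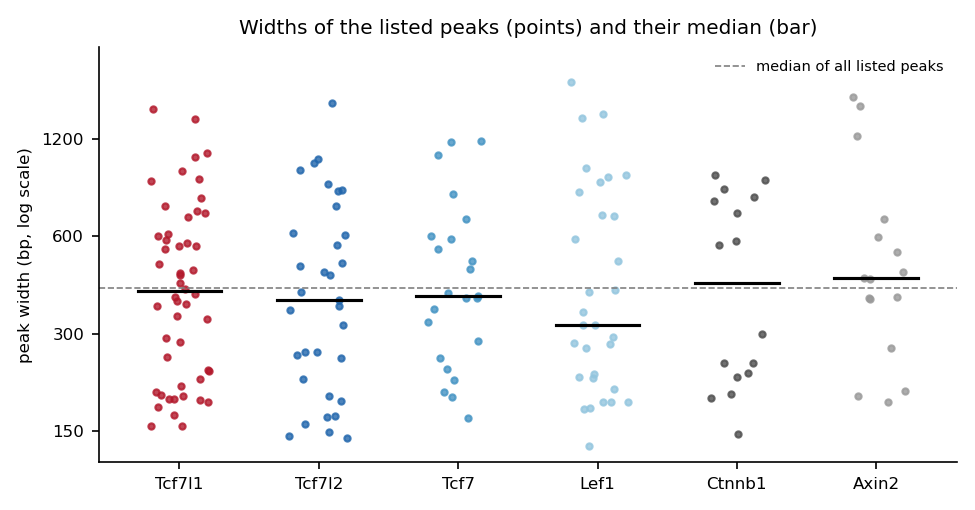
Width of each listed peak (points, bp, log scale) at the 6 loci, with the median of each locus as a bar and the median of all listed peaks, 415 bp, as a dashed line. The widest peak of each locus is at least 926 bp and the narrowest at most 185 bp, and the medians lie between 318 and 444 bp.

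The widest distal peak of each locus was placed differently with respect to its gene. At Tcf7l1 it was 1480 bp wide and lay at the far end of intron 3, 133358 bp from the 5′ end (chr6:72655157-72656636). At Tcf7l2 it was a 1040-bp peak in intron 3 (chr19:55806503-55807542). At Tcf7 and Lef1 it lay upstream, 1170 bp wide and 11615 bp from the start (chr11:52294045-52295214) and 1389 bp wide and 3938 bp from the start (chr3:131105839-131107227). At Axin2 it was 1616 bp wide, wider than the peak at the gene's own start, and lay 26507 bp upstream (chr11:108893035-108894650). At Ctnnb1 it was 926 bp wide and lay downstream within Ulk4 (chr9:120961921-120962846). Of the 169 peaks 7 were at least 50% soft-masked as repeats, 5 of them at Tcf7l1, whereas 11.3% of the whole list were.

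Because the TCF/LEF proteins and OCT4 bind DNA directly, the central 300 bp of each peak were searched on both strands for close matches to 7 motifs. These were TCF/LEF (ATCAAAG), a variant that differs from it by 1 base (TTCAAAG), OCT (ATGCAAAT), SOX (ACAATGG), ESRRB (TCAAGGTCA), and the composite OCT4::SOX2 and CTCF consensus motifs with up to 2 and 1 mismatches. The OCT4::SOX2 consensus contains an OCT octamer and a SOX core, so these matches overlap. A match describes letters and not binding, and the absence of one says only that these letters were not in the window. Peaks under 300 bp, 64 of the 169, were searched beyond their edges, so a match counted for them can lie outside the peak.

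The TCF/LEF motif, bound by the products of 4 of the 6 genes, was found in 6 of 169 peaks (3.55%, Wilson interval 1.64 to 7.53) and in 5.08% of all listed peaks, a share that lies inside that interval. Of the 6, 3 were at Lef1, 2 at Tcf7 and 1 at Ctnnb1. At Tcf7l1 there was none among 50 peaks, which allows a share of up to 6.0% when 3 counts are taken as the limit of a count of 0 (the Wilson upper bound is 7.14%), and in the whole width of the peaks there was none either. Whole peaks held the motif in 6 cases at Lef1, 3 at Tcf7, 2 at Tcf7l2, 2 at Axin2 and 1 at Ctnnb1, together 8.28% against 7.89% of the list. At Axin2, the 1514-bp peak at the start contained it both 81 bp and 886 bp into the gene. At Tcf7 it lay 357 bp upstream in the peak at the start.

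The variant was found in 19 of 169 peaks (11.2%, Wilson interval 7.32 to 16.9), where 7.04% of all peaks held it, with 5 at Lef1, 4 each at Tcf7l2 and Axin2, 3 at Tcf7l1, 2 at Tcf7 and 1 at Ctnnb1. The CTCF motif, bound by the insulator protein CTCF, was found in 9 peaks (5.33%, 2.83 to 9.81), where 10.6% of all peaks held it. Whole peaks and distal peaks were also searched, after these values were seen, and each contrast lost its separation from the list's share in 1 of the 2. In whole peaks CTCF was found in 16 of 169 (9.47%, 5.91 to 14.8, against 13% of the list), with 5 at Tcf7l1 where the central windows gave 1, and the interval then included the list's share. Among distal peaks the variant was found in 16 of 140 (11.4%, 7.16 to 17.8, against 8.06%), again with the list's share inside the interval, whereas in whole peaks it was found in 29 (17.2%, 12.2 to 23.6, against 10.9%). Distal peaks held CTCF in 8 of 140 (5.71%, 2.92 to 10.9, against 12.2%). These intervals assume independent peaks and hold counting error alone, 7 motifs were compared, and the members were not matched to the list in GC content (median 52.1% against 50.1%) or in distance to a TSS. The SOX motif was found in 10 peaks, 5 at Tcf7l2, 4 at Tcf7l1 and 1 at Lef1 (5.92% against 6.43%), and ESRRB, an orphan nuclear receptor of the pluripotency network, had a match in 4 (2.37% against 1.93%). The OCT octamer was found in 4 peaks (2.37% against 1.71%), 2 of them at Tcf7l1, and OCT4::SOX2 in 1 (0.592% against 0.167%), at Tcf7. The OCT4::SOX2 search was strict and matched 171 of all 102373 listed peaks. By another motif search and on other peak sets, the paper reports this motif at far more loci that depend on OCT4 or SOX2. By that search it also reports the motif for the MD-OCT4 and MD*-OCT4 cells studied here. Among their OCT4-bound accessible loci, enrichment was higher in the cluster that lost most accessibility in early G1.

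**Figure D5:**
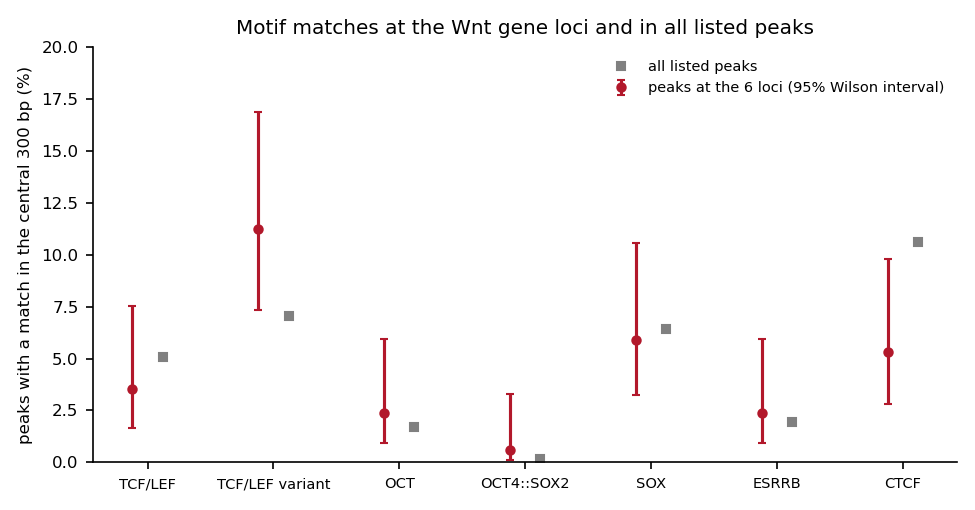
Share of peaks with a match in the central 300 bp (y axis, %) for 7 motifs, in the 169 peaks of the 6 loci (red, with 95% Wilson intervals that cover counting error) and in all listed peaks (grey). In these windows the interval includes the list's share for 5 motifs and leaves it out for the variant (11.2% against 7.04%; not so among distal peaks, with 8.06%) and CTCF (5.33% against 10.6%; not so in whole peaks, 9.47% against 13%).

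The single OCT4::SOX2 match lay 3553 bp upstream of Tcf7 at the centre of a narrow distal peak of 233 bp (chr11:52286451-52286683), with 1 mismatch. Its SOX core matched only as part of the composite consensus and not as the separate SOX motif. In the central 300 bp, no distal peak held an OCT or OCT4::SOX2 match together with a separate SOX or TCF/LEF match. Beside the OCT4::SOX2 match, therefore, the distal peaks with a TCF/LEF match in that window are shown. These are some of the places where a family member could recognise a gene of its own family or, at Ctnnb1, that of its coactivator. Distal peaks with the variant alone in that window, among them peaks at Tcf7l1, Tcf7l2 and Axin2, are not shown. Further distal peaks at Tcf7l2, Lef1 and Axin2 held the motif, but not wholly within the central 300 bp, and are not shown. Each line gives 120 bases around the match, 5′ to 3′ on the gene's strand, with the match in capitals; CTTTGAT is ATCAAAG read on the other strand. The windows are chr11:52286515-52286634 (minus strand, OCT4::SOX2 and OCT), chr11:52284403-52284522 (minus) and chr11:52314457-52314576 (minus) at Tcf7, chr3:131155766-131155885 (plus) and chr3:131249544-131249663 (plus) at Lef1, and chr9:120981602-120981721 (plus) at Ctnnb1.
Tcf7, 3553 bp upstream: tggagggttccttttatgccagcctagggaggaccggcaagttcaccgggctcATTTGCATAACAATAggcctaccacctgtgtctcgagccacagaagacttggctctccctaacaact
Tcf7, 1392 bp upstream: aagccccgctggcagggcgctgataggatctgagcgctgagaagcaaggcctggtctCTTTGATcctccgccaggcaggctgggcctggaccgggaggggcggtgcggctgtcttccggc
Tcf7, 31376 bp upstream: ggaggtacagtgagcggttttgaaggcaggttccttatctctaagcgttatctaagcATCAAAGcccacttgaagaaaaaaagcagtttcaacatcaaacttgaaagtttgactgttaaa
Lef1, intron 3: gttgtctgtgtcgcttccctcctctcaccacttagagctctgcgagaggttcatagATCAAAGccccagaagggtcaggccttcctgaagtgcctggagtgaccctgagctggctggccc
Lef1, downstream: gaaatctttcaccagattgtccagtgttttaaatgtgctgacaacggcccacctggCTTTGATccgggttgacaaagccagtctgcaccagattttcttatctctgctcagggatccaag
Ctnnb1, downstream: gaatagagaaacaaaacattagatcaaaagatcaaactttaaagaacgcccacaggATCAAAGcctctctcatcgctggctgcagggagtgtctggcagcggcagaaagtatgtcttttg

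In the first of these the OCT octamer and the SOX core are joined in one run of capitals. The Tcf7 sequence nearest to the gene lies in an exon of the antisense transcript A630014C17Rik, and that downstream of Ctnnb1 in an exon of the non-coding RNA Gm34945, within Ulk4. The downstream sequence of Lef1 lies in the neighbouring gene Hadh, so that distance alone ties these last 2 peaks to the Wnt genes. Of the 3 Lef1 peaks with a TCF/LEF match in the central 300 bp, the remaining 1 was 349 bp wide and lay in intron 3. It was within 1000 bp of the start of Gm42449, and a variant match followed its TCF/LEF match after 3 bases.

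Tcf7l1 had no match to ATCAAAG, although the variant TTCAAAG was found in 3 of its 50 central windows. Its 2 OCT matches and the 1 at Tcf7l2 are therefore shown beside these. This set was chosen after the matches were seen. The Tcf7l1 windows are chr6:72758541-72758660 and chr6:72647466-72647585 (minus strand), in introns 3 and 4, and the Tcf7l2 window is chr19:55712781-55712900 (plus strand), 29025 bp upstream of the gene in a 959-bp peak that also held an ESRRB match. ATTTGCAT is the octamer read on the other strand.
Tcf7l1, intron 3: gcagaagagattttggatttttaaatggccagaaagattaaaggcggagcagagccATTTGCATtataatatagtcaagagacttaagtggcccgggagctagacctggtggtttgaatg
Tcf7l1, intron 4: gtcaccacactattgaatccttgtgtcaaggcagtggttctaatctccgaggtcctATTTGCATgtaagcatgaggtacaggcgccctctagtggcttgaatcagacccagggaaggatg
Tcf7l2, upstream: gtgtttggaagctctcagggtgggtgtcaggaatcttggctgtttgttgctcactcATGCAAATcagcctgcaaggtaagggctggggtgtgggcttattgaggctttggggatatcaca

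The octamer in intron 3 began just past the edge of its peak, which was 194 bp wide and so narrower than the 300 bp searched. That in intron 4 lay well within a peak of 789 bp. None of the 250-base RefSeq promoter windows of the 6 genes held a match to any of the 7 motifs. Over all RefSeq windows, 3.21% held TCF/LEF, 4.46% the variant, 1.60% OCT, 0.119% OCT4::SOX2, 3.02% SOX, 0.387% ESRRB and 2.01% CTCF.

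To place the 6 genes within the pathway, 76 other Wnt genes were grouped by role and counted in the same way. Their median was 8.76 peaks per 100 kb, above the 6.97 of all protein-coding genes and below the 13.4 of the 6 genes. Only Wnt1 (20.2), Pygo2 (20.02) and Cdx1 (19.6) were at or above Tcf7l1. A peak within 1000 bp of the 5′ end was present for 73 of 76 (96.05%), against 66.1% of all protein-coding genes. Wnt8b, Wnt10b and Tle2 were the exceptions. When every start of a coding transcript was taken, 75 of 76 had such a peak, all but Wnt8b. The share of all protein-coding genes by this wider count is not given, and the 66.1% is not its baseline.

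Medians by role ran from 5.80 to 12.1. The nuclear cofactors, which bridge β-catenin to transcription or repress in its absence, had a median of 12.1 over 8 genes, from Tle1 (3.27) to Pygo2, and the 7 target genes had 12.0, from Nkd1 (4.03) to Cdx1. The 3 Dishevelled transducers had 12.0, from Dvl1 (8.94) to Dvl2 (13.4), and the 5 genes of the destruction complex had 9.34, from Apc (5.95) to Gsk3a (17.3). Among the 19 ligands the median was 11.8, from Wnt2 (2.12) to Wnt1. Lower medians were found for the 12 receptors (6.63, from Fzd8 at 1.89 to Lrp5 at 13.9), the 9 genes of the R-spondin axis that sets receptor turnover (5.90, from Rspo2 at 2.00 to Lgr6 at 10.8), the 11 secreted inhibitors (5.80, from Dkk2 at 2.05 to Notum at 16.8) and the ligand release genes Wls (1.01) and Porcn (10.7). The ranges of every pair of roles overlapped.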

How the data were processed

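ATAC-seq was performed by the authors on 20 libraries. Per the labels and the methods, paired reads were aligned to GRCm38 with STAR 2.6.1c, duplicates were removed with Picard, peaks were called with MACS2 2.1.1.20160309 and the peaks of the 16 dox-treated libraries were merged with bedtools. The authors deposited the merged list as chromosome, start and end, in base pairs, with no score, count or value per library. The methods describe the removal of peaks over 5000 bp, of peaks overlapping those called in input and of blacklisted ones. The list holds 7 peaks over 5000 bp, none at the 6 loci, so the width filter is not applied in it, and the other filters were not checked here. The list was sorted and read as 1-based coordinates. Depth and replicate error are unknown. The genes and lists were chosen with earlier results of these data known.

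Genes, transcripts and TSS (132629 positions) were taken from GENCODE M21, and sequences from the GRCm38.p6 assembly and RefSeq promoter windows, which matched all 6 genes. Peaks overlapping a gene or within 50000 bp were counted and divided by the window length. Runs joined neighbours with gaps of at most 10000 bp. Motifs were searched in the central 300 bp on both strands. The named peaks were, for each gene, that at the 5′ end, the widest distal peak and those with a TCF/LEF or OCT4::SOX2 match. Other peaks (with OCT matches, at the window borders, at other starts, or with several variant matches) were named after their values were seen. Shares have 95% Wilson intervals, and medians intervals from order statistics. No hypothesis test was made and intervals only describe counting error, since peaks of 1 list are not replicates and no limma fit of MD-OCT4 against MD*-OCT4 was possible. The functions were tested on simulated data. Alternatives changed the window, gap, minimum width, joining of peaks and motif window, and whole and distal peaks were added for the variant and CTCF after seeing the data. Calculations were made in Python 3.11.15 with pandas 2.3.3, numpy 2.4.6 and scipy 1.17.1, and plots with matplotlib 3.10.9.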

Additional observations from a re-analysis of the deposited data

How the results depend on the processing

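The number of peaks at the 6 loci, 169, became 95 with gene spans only and 105 without peaks under 300 bp, and stayed between 114 and 222 under the other 4 alternatives. The ratio of the Tcf7l1 density to the highest of the others, 1.08, fell below 1 with gene spans only (0.732), with flanks of 10000 bp (0.923) and without peaks under 300 bp (0.994), and was 1.02 to 1.35 otherwise; the highest other gene was Tcf7 throughout. The run of 40 peaks at Tcf7l1, taken as the largest run touching the gene, became 3 with gaps of at most 2000 bp. It became 7 with 5000 bp and 6 without peaks under 300 bp. The TCF/LEF share of 3.55% became 8.28% in whole peaks, 1.18% in the central 150 bp, 10.1% in the central 600 bp and 13.0% with TTCAAAG included, where the whole list gave 7.89%, 2.62%, 9.48% and 11.7%. The reversed letters, GAAACTA, were found in 1.18% against 3.10%. Distal peaks only (3.57%) and peaks under 50% soft-masked (3.70%) left it close. The median width at Tcf7l1 stayed between 390.0 and 456 bp.

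No paired analysis was possible because the merged list holds no value per library. For that reason the fits with and without the replicate block, and those leaving out a replicate, were left out. Peaks are not weighted by signal, so a weak and a strong region count alike.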

Other observations

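Several member peaks carried more than 1 TCF/LEF-type match. A 445-bp distal peak 41507 bp from the Axin2 start, downstream of the gene, held the variant TTCAAAG 3 times on the same strand, starting at 108961752, 108961832 and 108961908 on chromosome 11. The peak at the Axin2 start held 2 matches to ATCAAAG and 2 to the variant, and the widest Axin2 peak, 26507 bp upstream, held 3 of the variant. At Tcf7l1 the 5 peaks with a variant match held it once each, 1 of them in the peak at the start, 479 bp upstream. These were noticed after the matches were listed and were not compared with peaks of the same widths.

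Adjacent peaks separated by 100 bp or less were seen 3 times among the 50 peaks at Tcf7l1, 2 times among the 31 at Lef1 and 1 time among the 16 at Axin2. They were not seen at the other 3 loci. The share over the whole list is not given, so no difference between loci is read from these counts. The 6 peaks of the Tcf7l1 run beyond the 50000-bp window were 197 to 814 bp wide and were all distal, 2373 to 7699 bp from the nearest TSS.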
